A study of Mus musculus with 12 samples.

Results

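Imprinted genes were followed through the peaks of 2 repressive histone marks, H3K9me2 and H3K9me3, in the fat of mice on a high-fat diet (HFD) or a standard chow diet (SCD). The members were 37 known imprinted genes, taken by symbol and not by any measured value, out of 22380 protein-coding genes of the mm9 (NCBIM37) annotation, and each of the 37 was found there. By textbook knowledge 19 of them are expressed mainly from the paternal allele and 17 from the maternal allele, and Gnas has transcripts of both kinds. These labels are not specific to fat, and whether each gene is expressed from 1 allele in BAT or WAT was not measured. ChIP-seq was run on brown (BAT) and white (WAT) adipose tissue, the first of which produces heat while the other holds the energy store. The animals were wild-type C57BL/6J mice that went onto their diet at 6 weeks of age and stayed on it for 12 weeks, and chromatin was fixed with 1% formaldehyde. The 8 libraries with peak lists were HFD BAT H3K9me2, SCD BAT H3K9me2, HFD BAT H3K9me3, SCD BAT H3K9me3, HFD WAT H3K9me2, SCD WAT H3K9me2, HFD WAT H3K9me3 and SCD WAT H3K9me3, with 1 library in each group. The 4 input libraries, 1 for each diet and tissue, had no peak list of their own.

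In genomic imprinting a gene is expressed from the allele of only 1 parent, and the choice is set by DNA methylation laid down in the egg or the sperm at a differentially methylated region (DMR). At many DMRs the methylated allele also carries H3K9me3, placed with the help of the zinc finger protein ZFP57, which binds the methylated letters TGCCGC, and its partner TRIM28. Imprinted genes lie in clusters that share a control region, and many act on growth, on fat cells or on body weight. H3K9me2, which is placed by other enzymes, covers silent chromatin more broadly. A peak carries no allele information, so it does not say which parental copy was marked.

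A gene was counted as called in a list when a peak with a score of 50 or more lay within 3 kb of any of its annotated start sites, which is named a promoter peak here. The score is the peak caller's significance, read as 10 times the negative log10 of p. It grows with sequencing depth as well as with enrichment, and under this reading the lowest score counted is a p-value of 1e-05 from the caller. At that score the lists held between 8350 peaks (SCD WAT H3K9me3) and 52758 peaks (HFD BAT H3K9me3), and the numbers of reads behind them are unknown. Without replicates no test between groups was possible, and each count is therefore set beside the share of all protein-coding genes called in the same way. Tissue was taken whole, so a change in the mix of cells and a change within cells cannot be told apart, and peaks of these marks do not show whether markers of brown or white fat were expressed. The methods pair each of the 2 marks with an antibody described as against the other methylation state, and the marks are named here as the libraries are labelled.

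Most imprinted genes carried both marks at a promoter in 3 of the 4 diet and tissue groups. Both were called in 31 of 37 members in HFD BAT (40.8% of all genes), 28 in SCD BAT (40.3%) and 23 in HFD WAT (26.1%), but in 9 in SCD WAT (5.84%). In BAT, 31 of 37 members were called in HFD H3K9me2, where 45.6% of all genes were called, and 29 in SCD H3K9me2, where 43.3% were. For H3K9me3 in BAT the counts were 33 in HFD, beside 58.9% of all genes, and 31 in SCD, beside 52.3%. In WAT, 27 members were called in HFD H3K9me2 (39.3% of all genes) and 27 in SCD H3K9me2 (42.3%). H3K9me3 in WAT stood apart, with 30 members called in HFD (35.9% of all genes) and 10 in SCD (6.96%). In each list the members' share was above that of all genes.

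**Figure D1:**
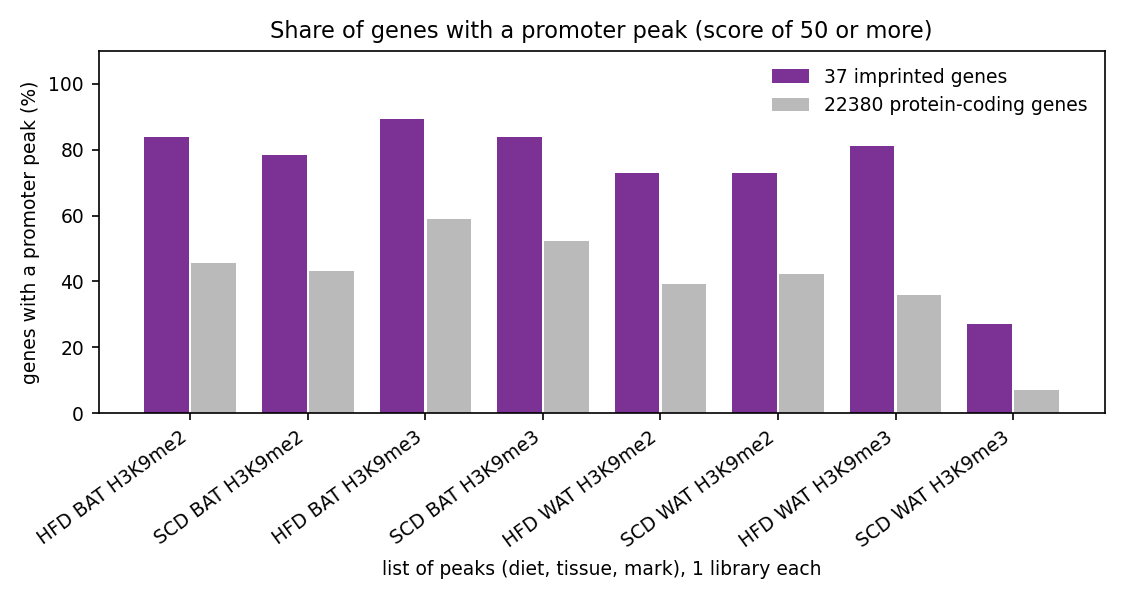
Share of genes with a promoter peak (y axis, percent) in each of the 8 peak lists (x axis), with purple bars for the 37 imprinted genes and grey bars for all 22380 protein-coding genes. The purple bar was the higher in each list, and both were lowest in SCD WAT H3K9me3, at 27.0% for imprinted genes and 6.96% for all genes.

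The members' peaks were also strong for their lists. The median of the best promoter score over called members was 420.4 in HFD BAT H3K9me3, against 247 over all called genes, and 336 in SCD BAT H3K9me3, against 212. In H3K9me2 it was 146 against 88.2 in HFD BAT, 142 against 102 in SCD BAT, 129.8 against 105 in HFD WAT and 184 against 106 in SCD WAT. In H3K9me3 of WAT the medians lay closer together, at 101 against 83.3 in HFD and 77.5 against 70.2 in SCD. Scores can be set side by side within a list, and between lists they also follow depth.

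**Figure D2:**
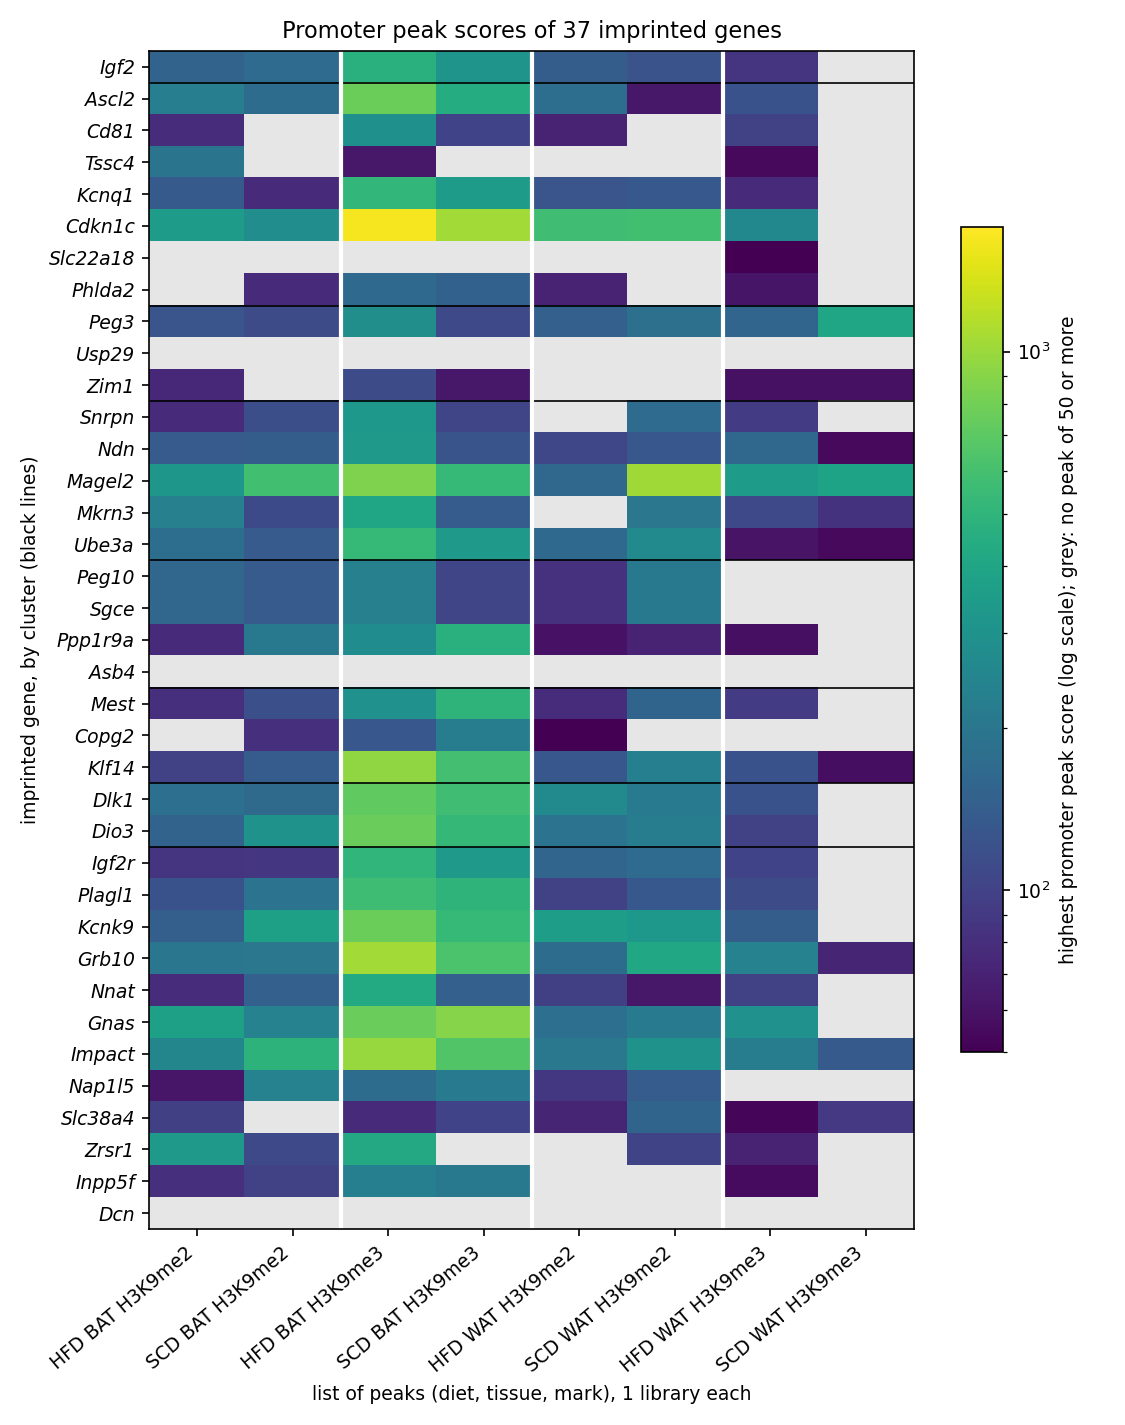
Highest promoter peak score (colour, log scale) of each of the 37 imprinted genes (rows, ordered by cluster with black lines between clusters) in each of the 8 peak lists (columns, white lines between the pairs of diets). Grey cells hold no peak of 50 or more, and the last column, SCD WAT H3K9me3, is grey for 27 of the 37 genes.

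Of the 37 members, 7 had a promoter peak in all 8 lists, which 3.72% of all genes had, and these were Peg3, Ndn, Magel2, Ube3a, Klf14, Grb10 and Impact. Leaving out SCD WAT H3K9me3, 20 members were called in all 7 other lists, which 17% of all genes were. Peg3, a zinc finger gene expressed from the paternal allele, scored 127 in HFD and 112 in SCD for BAT H3K9me2, and 287 in HFD and 109 in SCD for BAT H3K9me3. In WAT it scored 147 in HFD and 184 in SCD for H3K9me2, and 158 in HFD and 401 in SCD for H3K9me3. The last of these was the highest member score of its list, ranking 31 among 1557 called genes, and its peak was 2835 bp wide (chr7:6680737-6683571, over the start of the gene and into its first part). In HFD WAT H3K9me3 the Peg3 peak ranked 926 among 8033 called genes and was 1518 bp wide.

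Magel2 and Ndn are neighbouring genes without introns that are expressed from the paternal allele and are missing in Prader-Willi syndrome in humans. Magel2 scored 323 in HFD and 586 in SCD for BAT H3K9me2, 863 in HFD and 528 in SCD for BAT H3K9me3, 162 in HFD and 1029.9 in SCD for WAT H3K9me2, and 349.7 in HFD and 389 in SCD for WAT H3K9me3. The SCD WAT H3K9me2 value ranked 13 among 9476 called genes, while the HFD value of that pair ranked 1987 among 8800, in a gene that carried 2 separate peaks in HFD and 1 in SCD. In all 8 lists the peaks covered much of the short gene, between 55.2% and 77.6% of its bases. Ndn scored 138 in HFD and 142 in SCD for BAT H3K9me2, 338 in HFD and 125 in SCD for BAT H3K9me3, 106 in HFD and 130.2 in SCD for WAT H3K9me2, and 164 in HFD and 54.8 in SCD for WAT H3K9me3.

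Grb10, an adaptor that dampens insulin receptor signalling, scored 199.8 in HFD and 202 in SCD for BAT H3K9me2, 1036 in HFD and 624 in SCD for BAT H3K9me3, 174 in HFD and 413 in SCD for WAT H3K9me2, and 239 in HFD and 71.7 in SCD for WAT H3K9me3. Its strongest peak lay at the same internal start sites in each list, between 1189 and 1825 bp wide, and further peaks near its most upstream start were present in 6 of the 8 lists. Impact, a translation regulator expressed from the paternal allele, scored 251 in HFD and 488 in SCD for BAT H3K9me2, 986 in HFD and 656 in SCD for BAT H3K9me3, 205 in HFD and 301 in SCD for WAT H3K9me2, and 219 in HFD and 136 in SCD for WAT H3K9me3. Klf14, a transcription factor gene without introns that is expressed from the maternal allele and acts in fat tissue, had its highest score in HFD BAT H3K9me3 (947, against 593 in SCD) and its lowest in SCD WAT H3K9me3 (57.1, against 122 in HFD). Ube3a, a ubiquitin ligase, likewise ranged between 533 in HFD BAT H3K9me3 and 54.7 in SCD WAT H3K9me3.

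**Figure D3:**
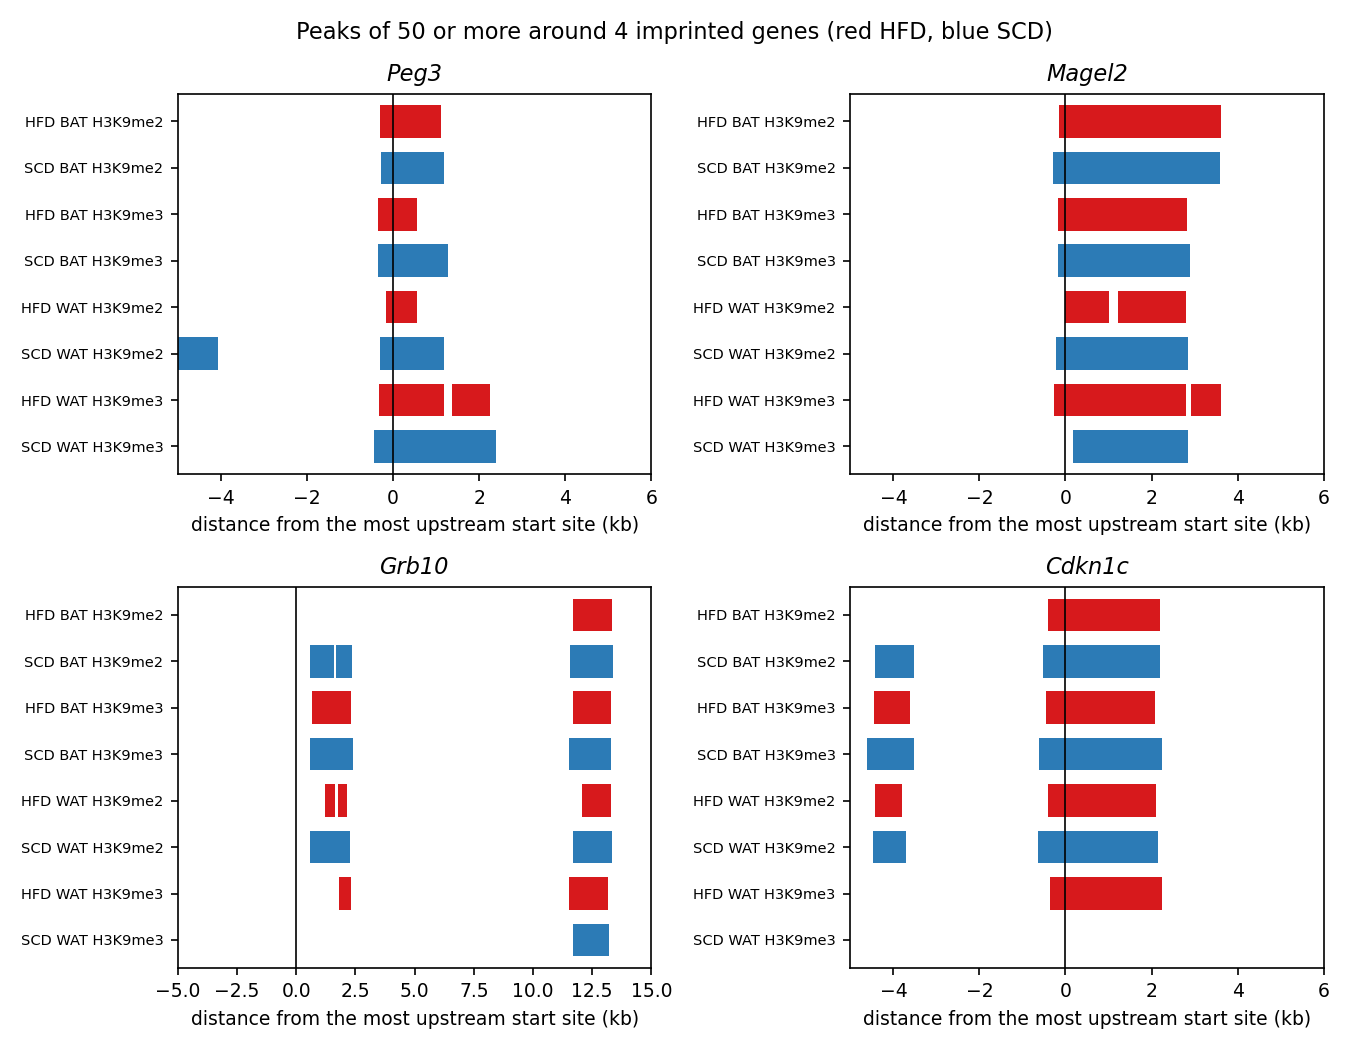
Peaks of 50 or more (bars, red for HFD and blue for SCD) around Peg3, Magel2, Grb10 and Cdkn1c in the 8 lists (rows), by distance from the most upstream start site in the direction of transcription (x axis, kb). Peg3, Magel2 and Grb10 carry a bar in each row, and Cdkn1c in each row other than SCD WAT H3K9me3.

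The letters bound by ZFP57 were looked for in these peaks because several members have their DMR at the promoter. TGCCGC on the printed strand, or GCGGCA, which is the same word on the other strand, occurred within 500 bp of the most upstream start in 17 of 37 members (45.9%) and in 35.0% of all 22380 protein-coding promoters of that length. Around the middle of the strongest promoter peak, in windows of 1001 bp, 3 or more matches were found in 12 of 33 called members in HFD BAT H3K9me3, where 9.32% of called genes had as many, and in 11 of 31 in SCD BAT H3K9me3, beside 10.7%. The counts were 11 of 31 in HFD BAT H3K9me2 (7.08% of called genes), 11 of 29 in SCD BAT H3K9me2 (10.9%), 8 of 27 in HFD WAT H3K9me2 (11.1%), 8 of 27 in SCD WAT H3K9me2 (11.3%), 8 of 30 in HFD WAT H3K9me3 (8.89%) and 4 of 10 in SCD WAT H3K9me3 (8.29%). For at least 1 match the members' shares lay nearer to those of called genes, and below them in HFD BAT H3K9me3, HFD WAT H3K9me2 and HFD WAT H3K9me3. The counts were 18 of 33 in HFD BAT H3K9me3 (56.6% of called genes), 22 of 31 in SCD BAT H3K9me3 (59.97%), 20 of 31 in HFD BAT H3K9me2 (48.4%), 21 of 29 in SCD BAT H3K9me2 (59.5%), 16 of 27 in HFD WAT H3K9me2 (60.9%), 17 of 27 in SCD WAT H3K9me2 (59.7%), 15 of 30 in HFD WAT H3K9me3 (53.3%) and 7 of 10 in SCD WAT H3K9me3 (47.0%). A match is a description of the letters and was not tested as a binding site. The stretches below are examples, of 200 bases each from the reference genome (NCBIM37, that is mm9). Not every member with a promoter DMR and 3 or more matches in its peaks is shown. Impact, with 5 matches in each of its lists, is among those left out. The stretches shown hold 3 or more matches within the promoter peaks of members with a promoter DMR and outside annotated exons. They are given 5′ to 3′ on the strand of the gene, with the matches in capitals. The Peg3 stretch is chr7:6682727-6682926 (minus strand), the Plagl1 stretch chr10:12810867-12811066 (plus strand) and the Snrpn stretch chr7:67149404-67149603 (minus strand).
Peg3: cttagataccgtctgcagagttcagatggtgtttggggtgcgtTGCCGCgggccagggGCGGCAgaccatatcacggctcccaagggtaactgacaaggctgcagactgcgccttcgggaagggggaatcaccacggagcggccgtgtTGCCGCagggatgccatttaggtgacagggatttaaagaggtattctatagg
Plagl1: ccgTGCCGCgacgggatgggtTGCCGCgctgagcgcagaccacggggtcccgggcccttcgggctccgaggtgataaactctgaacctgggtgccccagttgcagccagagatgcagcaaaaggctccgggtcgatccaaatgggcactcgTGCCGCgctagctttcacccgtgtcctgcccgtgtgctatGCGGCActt
Snrpn: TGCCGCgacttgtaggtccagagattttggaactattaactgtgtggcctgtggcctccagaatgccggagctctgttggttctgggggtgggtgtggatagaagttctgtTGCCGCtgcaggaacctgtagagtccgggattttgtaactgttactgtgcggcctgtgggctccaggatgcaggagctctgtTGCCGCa

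Peg3 held between 3 and 8 matches in its strongest peak, with 8 in the peak of 2835 bp, and Snrpn held between 7 and 9. Plagl1, a zinc finger gene that acts as a hub of imprinted gene networks, held between 3 and 6. Grb10 held 4, Impact 5 and Nap1l5 5 in each of their lists, while Ndn, Kcnq1, Cd81, Ppp1r9a, Slc38a4 and Zrsr1 held none. The matches were not limited to members with a promoter DMR. Among members listed here without a DMR, Ascl2 held 4, Cdkn1c 3 and Mkrn3 3 in each of their lists, and Kcnk9 between 3 and 6. Slc38a4 and Zrsr1, which held none, are listed with a promoter DMR.

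The 14 members listed with a promoter DMR, by textbook knowledge, were set beside the 21 listed with none at promoter or gene body. That label does not show that the 21 lack a DMR of any kind. Peg10 and Sgce, which share their peaks, both count among the 14. In BAT H3K9me2, 14 of 14 were called in HFD, against 15 of 21, and 13 of 14 in SCD, against 14 of 21. In BAT H3K9me3 it was 14 of 14 in HFD, against 17 of 21, and 13 of 14 in SCD, against 16 of 21. The 2 sets lay closer together in WAT H3K9me3, with 11 of 14 in HFD, against 17 of 21, and 4 of 14 in SCD, against 6 of 21, while in WAT H3K9me2 the counts were 11 of 14 in HFD, against 14 of 21, and 13 of 14 in SCD, against 12 of 21. By parental allele, paternally expressed members were called in 18 of 19 in HFD and 17 of 19 in SCD for BAT H3K9me2, and maternally expressed members in 12 of 17 in HFD and 11 of 17 in SCD. In BAT H3K9me3 they were 18 of 19 in HFD and 17 of 19 in SCD for the paternal set, against 14 of 17 in HFD and 13 of 17 in SCD for the maternal set. With peaks of 50 or more, the gap was widest in SCD WAT H3K9me2, with 17 of 19 paternal and 9 of 17 maternal genes. In HFD WAT H3K9me2 it was 14 of 19 and 12 of 17. The deposited SCD WAT H3K9me2 list has peaks below 50 at maternal genes Cd81 and Tssc4 (both 49.4), Phlda2 (46.4), Copg2 (42.8) and Zim1 (40.2). Inpp5f (43.9) is the only paternal gene added in this way. Counting these peaks would narrow the gap. It would also narrow the DMR contrast in that list, since Inpp5f is listed with a promoter DMR and the others with none. The HFD lists hold no peaks below 50. In WAT H3K9me3 the counts were 15 of 19 paternal and 14 of 17 maternal genes in HFD, and 6 of 19 paternal and 4 of 17 maternal genes in SCD. These differences between sets of genes were not tested, and the allele expressed in fat was not measured.

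Among all genes, promoters rich in CpG were called most often in 7 of the 8 lists, so the members were also set beside genes of like CpG content. That content was read at the most upstream start only, while a call can come from any start. The CpG content at the called promoter can therefore differ. The members' median CpG content within 500 bp of the most upstream start, as observed over expected, was 0.68 against 0.55 for all genes. When all genes were cut into equal tertiles of that value, 16 members fell in the top tertile, 15 in the middle and 6 in the bottom tertile. In the top tertile 15 of 16 members were called in SCD BAT H3K9me3, beside 89.8% of genes, and in the middle tertile 13 of 15 members were called, beside 53.8% of genes. In SCD WAT H3K9me3 the middle tertile held 7 of its 15 members among the called, beside 9.20% of genes, and the top tertile 3 of 16, beside 7.21%. In HFD BAT H3K9me3 the top tertile held 16 of 16, beside 93.5%. Over all lists and tertiles, the members' share was above that of genes except in the bottom tertile of SCD WAT H3K9me3. There 0 of 6 members were called, beside 4.46% of genes.

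The diets were compared first by presence of a peak. In BAT H3K9me2, 4 members were called in HFD only (13.8% of all genes), 2 in SCD only (11.5%) and 27 in both diets (31.8%). In BAT H3K9me3 the counts were 2 in HFD only (8.83%), 0 in SCD only (2.16%) and 31 in both (50.1%). WAT H3K9me2 had 3 in HFD only (7.16%), 3 in SCD only (10.2%) and 24 in both (32.2%), and as deposited, with SCD peaks down to 30, it had 0 in HFD only (2.63%) and 6 in SCD only (18.0%). In these 3 pairs the members called in a single diet were about as frequent as among all genes, or less so.

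WAT H3K9me3 differed, with 20 members in HFD only (30.6% of all genes), 0 in SCD only (1.68%) and 10 in both (5.27%). The 20 included all 7 members of the Kcnq1 domain of distal chromosome 7, together with Igf2, Mest, Dlk1, Dio3, Igf2r, Plagl1, Kcnk9, Nnat, Gnas, Snrpn, Ppp1r9a, Zrsr1 and Inpp5f. Cdkn1c, which encodes the cell cycle inhibitor p57, scored 260.1 in HFD and had no peak in SCD, and Gnas, which encodes the stimulatory G protein, scored 298 in HFD, where the deposited SCD list has a peak of 40.8, below the lowest score counted. The HFD lists hold no peaks below 50, so an absence cannot be looked at in the same way on that side. The SCD list held 8350 peaks of 50 or more and the HFD list 29190. When the HFD list was cut to its 8350 highest peaks, 6 members were called in HFD only (Ascl2, Cdkn1c, Dlk1, Plagl1, Kcnk9 and Gnas), beside 8.97% of all genes, and 3 in SCD only (Zim1, Ube3a and Slc38a4), beside 3.87%. As deposited, with peaks down to a score of 30, the SCD list called 19 of 37 members, beside 18.9% of all genes. HFD only then held 14 members (23.9%) and SCD only 3 (6.89%). Besides Gnas, the deposited SCD list has peaks below 50 at Igf2 (34.1), Mest (48.8), Dlk1 (31.4), Dio3 (37.8) and Kcnk9 (30.3).

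**Figure D4:**
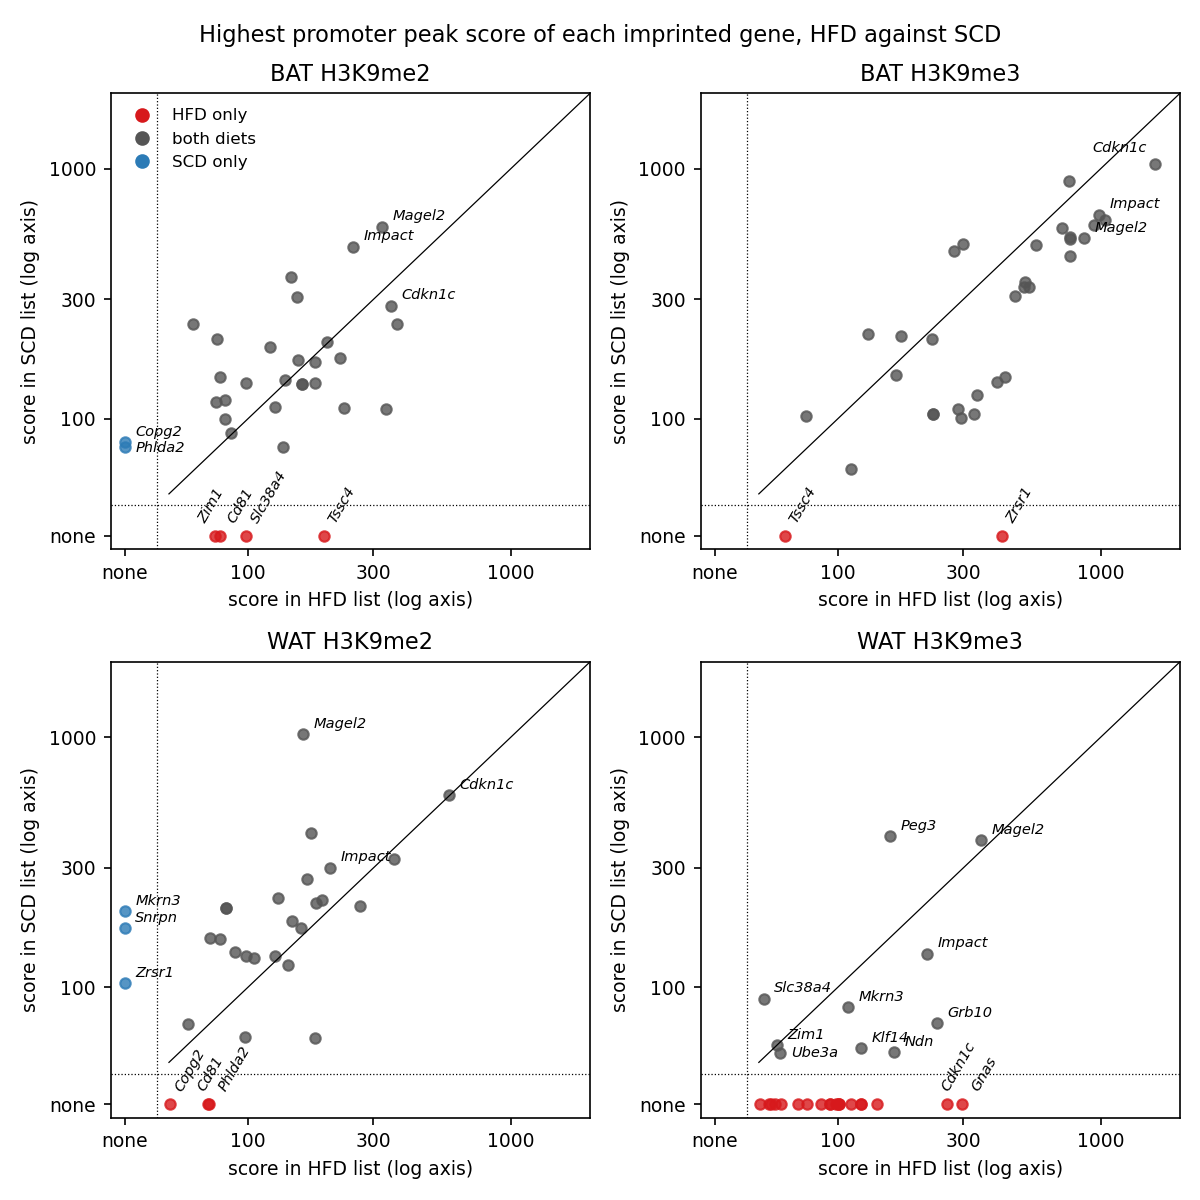
Highest promoter peak score of each imprinted gene in HFD (x axis, log scale) and SCD (y axis, log scale) for the 4 pairs of lists, with genes lacking a peak set at none and the diagonal marking equal scores. Red points were called in HFD only, blue points in SCD only and grey points in both diets, and WAT H3K9me3 has 20 red points and no blue one.

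Members called in both diets had promoter peaks that overlapped between HFD and SCD about as often as all genes did. Some promoter peak overlapped in 26 of 27 such members in BAT H3K9me2 (92.5% of all genes called in both diets), 31 of 31 in BAT H3K9me3 (99.3%), 24 of 24 in WAT H3K9me2 (97.3%) and 9 of 10 in WAT H3K9me3 (87.4%). Except among members in WAT H3K9me3, overlap was less frequent for the strongest peaks of the 2 diets. These overlapped in 21 of 27 members (79.6% of all genes), 26 of 31 (93.9%), 22 of 24 (90.8%) and 9 of 10 (77.1%) of the same pairs. They did not for Igf2, Peg10, Sgce, Mest, Dlk1 and Inpp5f in BAT H3K9me2, for Igf2, Zim1, Peg10, Sgce and Gnas in BAT H3K9me3, for Plagl1 and Nnat in WAT H3K9me2 and for Zim1 in WAT H3K9me3.

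The best score was higher in HFD for 25 of the 31 members in BAT H3K9me3 (68.5% of all genes), with a median ratio of HFD over SCD of 1.52, against 1.28 over all genes called in both diets. It was higher in HFD for 5 of the 24 in WAT H3K9me2 (46.2% of all genes) and lower for 19, with a median ratio of 0.80, against 0.95 over all genes. In BAT H3K9me2 it was higher in HFD for 11 of 27 (40.2% of all genes, median ratio 0.97, against 0.87), and in WAT H3K9me3 for 6 of 10 (78.0% of all genes, median ratio 1.21, against 1.48). Scores follow the depth of the libraries as well. When each score was replaced by the share of peaks in its list that scored lower, members stood higher in HFD in 27 of 31 for BAT H3K9me3 (84.2% of all genes) and 10 of 24 for WAT H3K9me2 (56.7%). By this share, 15 of 27 were higher in HFD for BAT H3K9me2 (52.2%) and 7 of 10 for WAT H3K9me3 (72.5%). The share also rises when a list holds more weak peaks, so it does not remove the difference in list size. In BAT, the H3K9me3 lists held 52758 peaks in HFD and 26835 in SCD. The H3K9me2 lists of BAT held 43173 in HFD and 24887 in SCD. None of these directions carries a test.

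Igf2, a fetal growth factor, stands by its own domain at the end of chromosome 7, and scored 154 in HFD and 172 in SCD for BAT H3K9me2, 471 in HFD and 309 in SCD for BAT H3K9me3, 142 in HFD and 123 in SCD for WAT H3K9me2, and 86.5 in HFD WAT H3K9me3, where the deposited SCD list has a peak of 34.1, below the lowest score counted. In BAT the strongest Igf2 peaks did not overlap between the diets. By cluster, the Snrpn domain of central chromosome 7 (Snrpn, Ndn, Magel2, Mkrn3 and Ube3a) had 5 of 5 members called in each list except HFD WAT H3K9me2 (3) and SCD WAT H3K9me3 (4). In BAT H3K9me3 each of the 5 scored higher in HFD, as 68.5% of all genes did. Snrpn, which encodes a splicing factor and carries the imprinting centre of the domain at its start, scored 329.9 in HFD against 105 in SCD, and Mkrn3, a ubiquitin ligase gene, 405 in HFD against 139.8 in SCD. In WAT H3K9me2 the same 5 genes went the other way, since Snrpn and Mkrn3 had no peak of 50 or more in HFD and scores of 173 and 201 in SCD, and Ndn, Magel2 and Ube3a scored lower in HFD, Ube3a with 168 in HFD against 270.2 in SCD.

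The Kcnq1 domain (Ascl2, Cd81, Tssc4, Kcnq1, Cdkn1c, Slc22a18 and Phlda2) is expressed mainly from the maternal allele. Cdkn1c had the highest member score in HFD BAT H3K9me3 (1609.6, rank 50 among 13192 called genes), in SCD BAT H3K9me3 (1044) and in HFD WAT H3K9me2 (579.9, rank 25 among 8800, against 588 in SCD), and it scored 349 in HFD and 283 in SCD for BAT H3K9me2. Ascl2, a transcription factor gene needed in the placenta, scored 767 in HFD and 447 in SCD for BAT H3K9me3, and 179.9 in HFD and 62.4 in SCD for WAT H3K9me2. Tssc4 was called in 3 lists, all of HFD (194 in BAT H3K9me2, 62.7 in BAT H3K9me3 and 54.6 in WAT H3K9me3). Its start sites are close to those of Trpm5 and Cd81, so that 1 peak can count for more than 1 of these genes, and a deposited SCD WAT H3K9me2 peak of 49.4, just under the limit, lay at both Tssc4 and Cd81. Cd81, a membrane tetraspanin gene, scored 78.5 in HFD BAT H3K9me2 and 71.1 in HFD WAT H3K9me2, with no peak of 50 or more in either SCD list, and 295 in HFD against 101 in SCD for BAT H3K9me3. Phlda2, which restrains growth of the placenta, was called in SCD only for BAT H3K9me2 (77.2) and in HFD only for WAT H3K9me2 (70.3, where the deposited SCD list has a peak of 46.4). Slc22a18, a transporter gene, was called in HFD WAT H3K9me3 alone (50.6, near the lowest score counted).

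On chromosome 6, Peg10, which derives from a retrotransposon, and Sgce, a sarcoglycan gene, start 102 bp apart and share their peaks. Their score was 161 in HFD and 138 in SCD for BAT H3K9me2, 231 in HFD and 105 in SCD for BAT H3K9me3, and 82.3 in HFD and 207 in SCD for WAT H3K9me2, with none of 50 or more in WAT H3K9me3, where the deposited SCD list has a peak of 39.2. In BAT their strongest peaks did not overlap between the diets. Mest, a gene linked to the growth of fat tissue, scored 298 in HFD and 498 in SCD for BAT H3K9me3. Copg2, a subunit of the vesicle coat, was called in SCD only for BAT H3K9me2 (80.8) and in HFD only for WAT H3K9me2 (50.4, where the deposited SCD list has a peak of 42.8). Ppp1r9a, which binds actin in neurons, scored 277 in HFD and 468 in SCD for BAT H3K9me3, and had a lower score in HFD in each of the 3 pairs where both diets were called. In the Dlk1-Dio3 domain both genes were called in each list other than SCD WAT H3K9me3. Dlk1, an inhibitor of fat cell formation, scored 180.3 in HFD and 169 in SCD for BAT H3K9me2 (at peaks that did not overlap), 715 in HFD and 579.9 in SCD for BAT H3K9me3, and 267 in HFD and 211 in SCD for WAT H3K9me2. Dio3, which inactivates thyroid hormone, scored 762 in HFD and 523 in SCD for BAT H3K9me3.

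Among the genes that stand apart from these clusters, Zrsr1, which resembles a splicing factor, was called in HFD only for BAT H3K9me3 (420) and in SCD only for WAT H3K9me2 (104). For BAT H3K9me2 it scored 335 in HFD and 109.6 in SCD. Its peaks lay before the start of the gene, inside Commd1, and cannot be told apart between the genes. Slc38a4, an amino acid transporter gene, was called in HFD only for BAT H3K9me2 (98.2) and scored 52.3 in HFD and 90.0 in SCD for WAT H3K9me3. Zim1, a zinc finger gene beside Peg3, was called in HFD only for BAT H3K9me2 (74.6). Gnas was among the 3 highest members in HFD BAT H3K9me2 (369, against 239 in SCD), SCD BAT H3K9me3 (892, at another of its promoters than the HFD peak of 760) and HFD WAT H3K9me3, and in 4 of its lists its best score is also that of the antisense gene Nespas. Nnat, a small membrane protein gene, scored 434 in HFD and 146 in SCD for BAT H3K9me3, and Blcap, which surrounds it, has the same best score in 6 of the lists. Nap1l5, a nucleosome assembly gene within Herc3, scored 61.6 in HFD and 239.6 in SCD for BAT H3K9me2. Kcnk9, a potassium channel gene, was among the 3 highest members in SCD BAT H3K9me2 (369, against 146 in HFD) and in HFD WAT H3K9me2 (359, against 327 in SCD).

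No list had a promoter peak at Usp29, Asb4 or Dcn, and 31.8% of all genes had none either. Usp29 is annotated here with 1 start and a length of 2610 bp, and that start lies 230.7 kb from the most upstream start of Peg3. The genes share a control region, and Peg3 was called in all 8 lists. The absence at Usp29 therefore covers only the annotated start, and no other start of the gene was looked at. Asb4 had a peak inside the gene, away from its starts, in 6 of the 8 lists, and Dcn, which encodes the matrix protein decorin, in 3.

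Between tissues, 21 members were called in BAT only for SCD H3K9me3 (46.6% of all genes), and 0 in WAT only (1.32%). In HFD the same mark had 4 members in BAT only (25.9%), namely Peg10, Sgce, Copg2 and Nap1l5, and 1 in WAT only (2.8%), Slc22a18. In HFD H3K9me2, 6 members were called in BAT only (16.7%) and 2 in WAT only (10.5%), and in SCD H3K9me2 there were 3 in BAT only (9.58%) and 1 in WAT only (8.66%). Between marks within HFD WAT, 7 members were called in H3K9me3 only (9.82%), among them Snrpn, Mkrn3 and Zim1, and 4 in H3K9me2 only (13.2%), which were again Peg10, Sgce, Copg2 and Nap1l5. In HFD BAT the counts were 2 in H3K9me3 only (18.1%) and 0 in H3K9me2 only (4.75%), in SCD BAT 3 in H3K9me3 only (12%) and 1 in H3K9me2 only (2.99%), and in SCD WAT 1 in H3K9me3 only (1.12%) and 18 in H3K9me2 only (36.5%).

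Within gene bodies, 33 members had a peak in HFD BAT H3K9me2 (53.2% of all genes) and 31 in SCD (47.4%), and for BAT H3K9me3 33 in HFD (62.3%) and 34 in SCD (54.4%). In WAT there were 27 in HFD H3K9me2 (41.4%) and 27 in SCD (45.5%), and 31 in HFD H3K9me3 (42%) against 13 in SCD (11.5%). The peaks covered 4.44% of the members' bases in HFD BAT H3K9me2 (2.83% over all genes) and 3.25% in SCD (1.58%), and 3.39% in HFD BAT H3K9me3 (2.17%) and 3.28% in SCD (1.55%). In WAT they covered 1.84% in HFD H3K9me2 (0.84%) and 3.01% in SCD (1.26%), and 3.07% in HFD H3K9me3 (1.38%) and 0.92% in SCD (0.32%). Kcnq1, a potassium channel gene with a DMR in its body, had 17 peaks away from its starts in HFD BAT H3K9me2 and 4 in SCD, 8 in HFD and 4 in SCD for BAT H3K9me3, 0 in HFD and 3 in SCD for WAT H3K9me2, and 5 in HFD and 2 in SCD for WAT H3K9me3. Igf2r, the receptor that clears IGF2, had 4 such peaks in HFD and 2 in SCD for BAT H3K9me2, 1 in HFD and 2 in SCD for BAT H3K9me3, 0 in HFD and 2 in SCD for WAT H3K9me2, and 2 in HFD and 0 in SCD for WAT H3K9me3. The antisense RNA Airn starts inside it, and its start carried a peak in HFD BAT H3K9me2 (63.5), in SCD BAT H3K9me3 (150.3) and in SCD WAT H3K9me2 (103).

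Of 31 further genes of imprinted clusters, 29 were found in the annotation. Of the 29, 19 were called in HFD (45.6% of all genes) and 14 in SCD (43.3%) for BAT H3K9me2, and 18 in HFD (58.9%) and 17 in SCD (52.3%) for BAT H3K9me3. In WAT 13 were called in HFD (39.3%) and 16 in SCD (42.3%) for H3K9me2, and 13 in HFD (35.9%) and 1 in SCD (6.96%) for H3K9me3. Their share was above that of all genes in each list except SCD WAT H3K9me3. The comparison is loose, since some of the 29, such as Airn, are not protein-coding, while the shares are of protein-coding genes. Several also take their call from a member's peak, such as Commd1, with the Zrsr1 score of 335 in HFD BAT H3K9me2. The 29 are therefore not a set apart from the members. Peg12, which lies in the Snrpn domain, was the 1 of the 29 called in all 8 lists, scoring 851 in HFD and 1055.8 in SCD for BAT H3K9me3 and 101 in HFD and 81.8 in SCD for WAT H3K9me3.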

How the data were processed

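ChIP-seq libraries of H3K9me2 and H3K9me3 from BAT and WAT of HFD and SCD mice were used as the deposited peak lists, 1 library in each group, while 4 inputs had no list. The authors' steps were quality checks (FastQC), adapter trimming (Trim Galore), alignment against mm9 (Bowtie2 2.4.2), removal of multi-mapping reads and peak calling (MACS2), and the score in column 5 of these deposited lists is used here. No file names its unit. It was read as 10 times the negative log10 of p because the lowest deposited score was about 50 in 6 lists, whereas both WAT lists of SCD mice began at 30, and peaks under 50 were left out (18267 in SCD WAT H3K9me2 and 19424 in SCD WAT H3K9me3). Read depth is unknown, so no interval was computed.

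Genes and 70064 start sites came from GENCODE vM1 on NCBIM37, and promoters spanned 3 kb on either side of each start, with an overlap of at least 1 bp. The members and lists were chosen with earlier results of these data known. Named were members called in all 8 lists or none, members called in 1 diet only and the 3 highest of each list. Other members are given as examples of their cluster. Scripts ran in Python 3.11.15 with NumPy 2.4.6 and matplotlib 3.10.9. Gene calls differed in 0 cases from those of bedtools 2.31.1, and on simulated data 200 of 200 genes given a promoter peak were recovered. The simulated peaks were placed inside the promoter windows, so their recovery checks the code that makes the calls and not the detection of peaks. Alternatives were no lowest score, a lowest score of 80, as many peaks from each list, promoters of 1 kb, 1 start per gene and the middle of the peak. Equal numbers within a pair, and leaving out SCD WAT H3K9me3, were chosen after seeing the data.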

Additional observations from a re-analysis of the deposited data

Results flagged for a closer look

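In H3K9me2, 2 imprinted genes went opposite ways between the diets in the 2 tissues. Phlda2, a growth-restraining gene of the placenta, had a promoter peak in HFD only in WAT (score 70.3) and in SCD only in BAT (77.2). Copg2, a subunit of the vesicle coat, had a promoter peak in HFD only in WAT (50.4) and in SCD only in BAT (80.8). With 1 library in each group the difference between the tissues was not tested. The deposited SCD WAT H3K9me2 list held peaks below 50 at both, with a score of 46.4 at Phlda2 and 42.8 at Copg2, so that the WAT part of the contrast turns on the lowest score counted. The HFD BAT H3K9me2 list held no peaks below 50, so the BAT part could not be looked at in the same way.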

How the results depend on the processing

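No paired analysis was possible because each group has 1 library. Depth is unknown and scores follow it, so small counts rest on the lowest score taken, and the percentages here are the shares of all protein-coding genes under the same setting. With the lists as deposited, SCD WAT H3K9me3 called 19 members at promoters (18.9%) and 21 in gene bodies (28.3%), WAT H3K9me2 had 0 in HFD only (2.63%) and 6 in SCD only (18.0%), WAT H3K9me3 had 3 in SCD only (6.89%), and 13 members were called in all 8 lists (7.41%). With a score of at least 80, SCD WAT H3K9me3 called 5 at promoters (2.60%) and 5 in bodies (4.71%), SCD only held 5 (13.3%, BAT H3K9me2), 1 (1.92%, BAT H3K9me3), 5 (10.7%, WAT H3K9me2) and 1 (0.90%, WAT H3K9me3), and 3 were called in all 8 lists (1.05%). With 8350 peaks from each list, promoter counts were 19 in HFD BAT H3K9me2 (11.8%), 21 in HFD (24.1%) and 17 in SCD (23.1%) for BAT H3K9me3, and 13 in HFD WAT H3K9me3 (12.1%), and gene body counts were 18 in HFD BAT H3K9me2 (18.0%), 21 in HFD (26.2%) and 17 in SCD (24.8%) for BAT H3K9me3, and 16 in HFD WAT H3K9me3 (15.7%). HFD only then held 5 in BAT H3K9me3 (6.39%) and 6 in WAT H3K9me3 (8.97%), SCD only held 7 (12.0%, BAT H3K9me2), 1 (5.39%, BAT H3K9me3), 7 (7.43%, WAT H3K9me2) and 3 (3.87%, WAT H3K9me3), and 3 members were called in all 8 lists (1.09%) and 8 in none (57.9%). With promoters of 1 kb, SCD only held 1 in BAT H3K9me3 (2.15%) and 1 in WAT H3K9me3 (1.40%). With 1 start site per gene, SCD only held 4 in BAT H3K9me2 (12.5%) and 1 in WAT H3K9me3 (1.46%), and 6 members were called in none (35.1%). Of the scores of the 3 highest members of each list, 5 then moved by over 1.5 times and 19 did not. Gnas, with 16 starts, fell from 369 to 153 (HFD BAT H3K9me2), from 892 to 151 (SCD BAT H3K9me3) and from 298 to 126 (HFD WAT H3K9me3). Grb10, with 9 starts, fell from 1036 to 339 (HFD BAT H3K9me3) and from 413 to 141 (SCD WAT H3K9me2). With equal numbers within the pair, chosen after seeing the data, HFD only held 1 in BAT H3K9me3 (3.66%) and 6 in WAT H3K9me3 (8.97%), and SCD only held 1 in BAT H3K9me3 (6.42%) and 3 in WAT H3K9me3 (3.87%). Without SCD WAT H3K9me3, also chosen after seeing the data, 20 members were called in all 7 other lists (17%). Using the middle of the peak, or an overlap of 50% of both peaks, moved no count by over 1.5 times. The cause of these shifts was not tested.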
